A study of Homo sapiens with 39 samples.

Results

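HNF4A isoforms 6 and 4 carry the same N-terminus, which includes exon 1B, and end differently: isoform 6 has the short C-terminus and isoform 4 the long one. Their direct comparison rested on 6 of the 39 RNA-seq libraries of the study, 3 from an isoform 6 line and 3 from an isoform 4 line, chosen by the isoform that the labels name. The isoform classes come from the standard nomenclature of HNF4A and not from the labels.

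Both groups were HCT116 cells, an established human colorectal cancer line, in which the Flp-In T-REx system places 1 copy of a construct at a fixed genomic site under a doxycycline-switched promoter. Each isoform was fused to GFP and was represented by 1 stable line. All cells of the study, parental cells included, received 2.5 µg/ml doxycycline for 48 h. Before induction the lines grew in 5 µg/ml blasticidin S and 100 µg/ml hygromycin B, and the parental cells in 5 µg/ml blasticidin S and 100 µg/ml zeocin. These antibiotics were withdrawn at induction. No line made GFP alone, and with 1 line per isoform a difference between isoforms cannot be told apart from a difference between lines. The labels do not say whether the 3 libraries of a line came from separate cultures. The limma p-values measure the spread between libraries of the same group, pooled over all 13 groups of the study, and this spread may be technical.

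HNF4A, hepatocyte nuclear factor 4 alpha, is a nuclear receptor that binds DNA as a homodimer and sustains the gene programmes of hepatocytes, enterocytes and pancreatic beta cells. Alternative promoters and splicing give isoforms that share the DNA-binding and ligand-binding domains. They differ in the N-terminal activation function and in the C-terminal F domain, which is known to modulate co-activator use. In the colon, HNF4A supports epithelial differentiation, and isoforms from its alternative promoters differ in their distribution along the crypt.

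The part of the message in which the short and the long form differ is shown because it is the difference under study. The bases come from GENCODE 29 transcripts on GRCh38, chromosome 20, plus strand. The sequences of the constructs themselves were not used here. The transcripts serve to show the C-terminal parts, and their N-terminus may differ from that of the isoforms compared. Their coding lengths and number of shared bases are therefore not to be taken as those of these isoforms. The annotated coding sequences of the transcripts read for the long and the short form are 1392 and 1251 bases long and are identical over 1129 bases, up to base 44424254. Beyond this point the short form reads on into the intron that follows the exon, at chr20:44424255-44424376, and stops after 122 bases. The long form splices to 2 more coding stretches, chr20:44428335-44428457 and chr20:44429523-44429662, 263 bases in all. In the lines that follow, 5′ to 3′, the 21 lower-case bases are shared and the capitals belong to that form alone.
Long C-terminal form: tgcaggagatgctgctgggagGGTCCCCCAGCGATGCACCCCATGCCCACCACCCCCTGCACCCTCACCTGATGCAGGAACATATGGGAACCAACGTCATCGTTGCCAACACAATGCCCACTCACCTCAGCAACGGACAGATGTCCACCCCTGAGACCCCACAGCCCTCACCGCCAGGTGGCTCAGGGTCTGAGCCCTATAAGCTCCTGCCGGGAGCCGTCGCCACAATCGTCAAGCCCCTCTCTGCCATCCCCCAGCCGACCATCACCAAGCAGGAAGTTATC
Short C-terminal form: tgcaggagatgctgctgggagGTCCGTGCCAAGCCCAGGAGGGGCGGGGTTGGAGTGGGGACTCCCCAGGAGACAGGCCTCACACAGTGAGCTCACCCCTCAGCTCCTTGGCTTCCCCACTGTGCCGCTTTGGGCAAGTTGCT

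HNF4A itself was read first, since it checks the labels. Transcript abundance is given as TPM, a level scaled to a fixed total in each library and divided by transcript length, so that levels can be compared between genes. The sum of the 12 HNF4A rows was 1026.7, 1108.62 and 1077.54 TPM in the isoform 6 libraries and 871.72, 872.32 and 823.25 TPM in the isoform 4 libraries. Every isoform 6 library lay above every isoform 4 library, so isoform 6 was compared with isoform 4 at 1.25 times its message level. The log2 difference was 0.32 ± 0.137 (SE), and the two-sided exact permutation test gave p = 0.1, the smallest that 3 against 3 libraries allow. The parental cells had 31.5 TPM ± 0.589 (SD, n = 3), and the log2 differences from them were 5.04 for isoform 6 and 4.72 for isoform 4. Whether the differences in other genes follow the HNF4A level was not tested.

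The row names needed care. In the tables of isoforms 4 and 5, 29 of 45446 names differ from those of the other tables, among them HNF4A4 and HNF4A5, which are exchanged. By the names of its own table the isoform 4 line has its reads in the isoform 4 row, and by row order in the row that the other tables call HNF4A5. Small amounts of message assigned to rows of other N-terminal forms bear on this. The isoform 4 libraries had 0.087, 0.0747 and 0 TPM in the rows of the long class and at most 7.18e-05 TPM in those of the 10-residue insertion class. The isoform 5 libraries had at most 3.96e-06 TPM in the long class and 0, 0.0775 and 0.183 TPM in the insertion class. In the other lines, too, such traces lay mainly in the class of the label, for example 0, 0.612 and 0.399 TPM in the long class for isoform 1. By this measure the libraries labelled isoform 4 lie in the long class, and the exchanged names would be those of the tables. The measure rests on small traces, with 0 TPM in isoform 4 column 3, and the reads themselves were not examined. Isoform 5, which has exon 1B with the insertion in the long C-terminus, is given beside isoform 4 in what follows.

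Libraries of the same line correlated with r between 0.9904 and 0.9922 across genes on the log2(TPM + 1) scale, and among tested genes above 0 TPM no pair of these 6 libraries had an identical value (0%). The 6 colon epithelial markers (EPCAM, KRT8, KRT18, KRT19, CDH1 and CDX2) were expressed in every library and summed to between 2490 and 2780 TPM in isoform 6 and between 2780 and 2980 TPM in isoform 4. The 10 markers of other cell types summed to between 18.9 and 22.4 TPM in isoform 6 and between 21.5 and 27.6 TPM in isoform 4. Most of that sum came from COL1A1, of fibroblasts, at 10.7 to 13.8 TPM in isoform 6 and 9.39 to 14.9 TPM in isoform 4, and from CD68, of macrophages, at 4.78 to 6.47 and 7.1 to 8.28 TPM. CD68 was lower in isoform 6 (-0.47, adjusted p = 0.00413), and its part in the other results was not tested. PTPRC, the pan-leukocyte marker, reached at most 0.125 TPM and CD3E, of T cells, at most 0.0548 TPM. Fewer cells of a kind and less RNA per cell cannot be told apart in bulk libraries.

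Large differences between the isoforms were few. Vimentin, the ciliary gene RPGRIP1, FGF13 and the matricellular genes SPARC and CYR61 were higher in isoform 6. The embryonic globin HBE1 with its olfactory receptor neighbours, the EGF-family ligands EREG and AREG, the adhesion molecule ICAM1 and the lipid droplet gene CIDEC were lower. Of 15002 genes tested (mean of at least 1 TPM over all 39 libraries), 46 were called higher in isoform 6 (0.307%) and 28 lower (0.187%), 74 in all (0.493%). A gene was called at an adjusted p under 0.05 from limma with Benjamini-Hochberg adjustment and a difference of at least 1 on the log2(TPM + 1) scale, which understates changes of low genes. Of the 74 rows, 62 were protein-coding genes or long non-coding RNAs, and 12 were short RNAs, repeated tRNA rows (TRG-GCC1-1 and its copies), pseudogenes or untyped rows, with SCARNA13 (2.55) and SNORA47 (-2.84) the largest in each direction. In 73 of the 74 the 3 libraries of one isoform did not overlap those of the other, which held for 28.1% of all tested genes. Of the 74, 44 were called in each of the 6 fits that left out 1 of the 6 libraries.

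**Figure D1:**
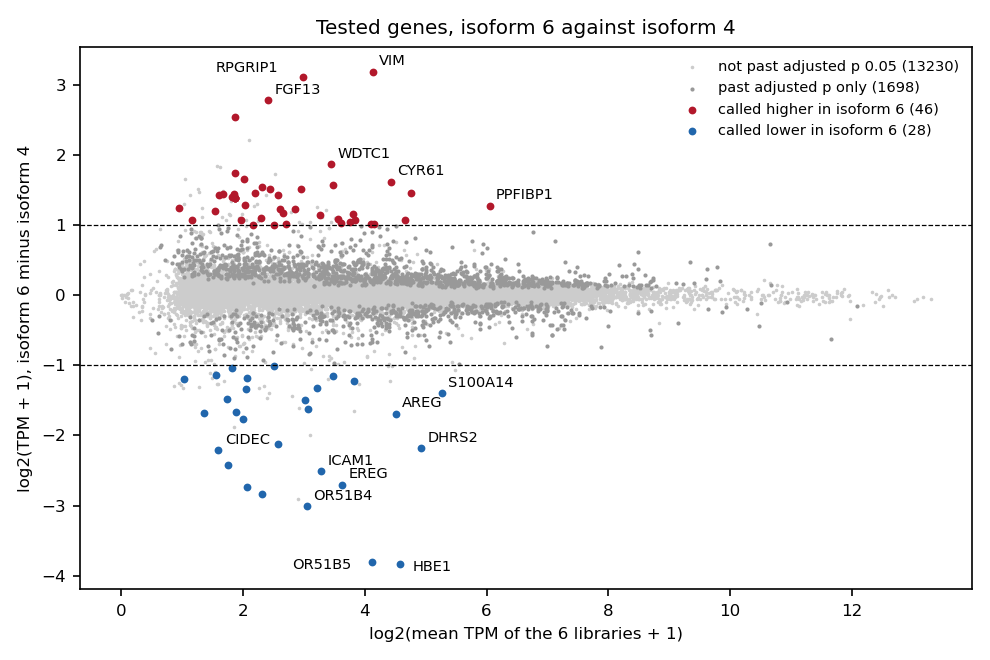
Difference in log2(TPM + 1) between isoform 6 and isoform 4 (vertical axis) against the mean level of the 6 libraries (horizontal axis, log2 scale), 1 point per tested gene. Red points mark the 46 rows that were higher and blue points the 28 that were lower in isoform 6 by the call rule, dashed lines mark a difference of 1 in either direction, and most of the 15002 tested genes lie near 0.

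Without a minimum fold, 1221 genes were higher (8.14%) and 551 lower (3.67%) at an adjusted p under 0.05, 1772 in all (11.8%). The count was 1157 without isoform 6 replicate 3. The split depended on scaling: with median-of-ratios scaling 996 were higher and 1023 lower, 49.3% higher in place of 68.9%. That scaling moved the median difference of all genes from 0.0214 to -0.0062. At an absolute difference of at least 0.5, 216 genes were higher and 110 lower. These numbers are the background for the gene lists that follow.

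Vimentin (VIM, chromosome 10), the intermediate filament protein of mesenchymal cells, had 27.7, 32.6 and 31.5 TPM in the isoform 6 libraries. In the isoform 4 libraries it had 2.34, 2.59 and 2.46 TPM. Every isoform 6 library was far above every isoform 4 library, and the log2 difference was 3.19 ± 0.218 (SE, adjusted p = 3.84e-12). VIM was at 14.1 TPM ± 0.461 (SD, n = 3) in the parental cells, so that isoform 6 lay above them (1.06 on the log2 scale) and isoform 4 below them (-2.12). The isoform 5 line had 8.15 TPM ± 1.88 (SD, n = 3). Over all 13 groups the isoform 6 line had the highest mean for VIM and the isoform 4 line the lowest, with the isoform 12 line next highest at 19.7 TPM ± 2.46 (SD, n = 3) and the isoform 7 line next lowest at 2.66 TPM ± 0.0515 (SD, n = 3).

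RPGRIP1 (chromosome 14), a scaffold protein of the photoreceptor connecting cilium, was at 13.1, 13.8 and 13 TPM in isoform 6 and at 0.788, 0.576 and 0.574 TPM in isoform 4. The groups were far apart, with a difference of 3.12 ± 0.129 (SE, adjusted p = 4.51e-17). Isoform 5, at 0.437 TPM ± 0.0968 (SD, n = 3), was near isoform 4, and the parental cells, at 3.37 TPM ± 0.258 (SD, n = 3), were between. FGF13 (chromosome X), an intracellular FGF homologue that binds voltage-gated sodium channels, was also higher in isoform 6 than in isoforms 4 and 5 and the parental cells. It had 8.17, 8.67 and 8.19 TPM in isoform 6 and 0.249, 0.258 and 0.603 TPM in isoform 4, a difference of 2.78 ± 0.13 (SE, adjusted p = 5.48e-16). The parental mean was 2.34 TPM and that of isoform 5 was 0.807 TPM. For VIM, RPGRIP1 and FGF13 the isoform 6 line was higher than the parental cells and the isoform 4 line lower, each past an adjusted p of 0.05 in limma. Among the other lines, the isoform 8 line, which has a long C-terminus of the insertion class, had 10.6 TPM ± 0.642 of RPGRIP1, 7.85 TPM ± 0.832 of FGF13 and 18.5 TPM ± 0.178 of VIM (SD, n = 3).

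A second kind of higher gene had isoform 6 near the parental level and isoform 4 below it. WDTC1 (chromosome 1), a WD-repeat protein linked to fat storage, had 15.4, 17.5 and 15.7 TPM in isoform 6 against 4.15, 3.8 and 3.17 TPM in isoform 4. The difference was 1.87 ± 0.0874 (SE, adjusted p = 5.48e-16). Parental cells had 14.6 TPM ± 0.121 (SD, n = 3) and isoform 5 had 14.5 TPM ± 0.588 (SD, n = 3), so the isoform 4 libraries were the low ones. KDM1B, a histone lysine demethylase, had a like order, with a mean of 7.6 TPM in isoform 4 and 18.3 TPM in both isoform 6 and the parental cells (isoform 5 had 19.2 TPM). BAX, the pro-apoptotic BCL2 family member, did not reach the minimum difference but was low in isoform 4 alone among these groups. The isoform 4 mean was 102 TPM, while isoform 6 had 174, isoform 5 had 182 and the parental cells had 172 TPM. The difference of 0.77 ± 0.0416 (SE) had an adjusted p of 1.78e-14. The natural killer receptors KLRC2 and KLRC3 rose by 1.52 and 1.46, but they are near-identical paralogs whose reads may be split between them, which leaves each value uncertain.

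SPARC, CYR61 and THBS1 encode secreted matricellular proteins, which tune the contact of cells with the matrix. SPARC had 5.28, 4.63 and 5.52 TPM in isoform 6 and 0.917, 1.01 and 0.904 TPM in isoform 4, without overlap. Its difference was 1.66 ± 0.338 (SE, adjusted p = 0.000986), and both lines were under the parental 17.2 TPM ± 2.84 (SD, n = 3). CYR61, also named CCN1, had 31.2, 32.6 and 30.8 TPM in isoform 6. Against 9.1, 9.87 and 9.84 TPM in isoform 4 this was a rise of 1.62 ± 0.151 (SE, adjusted p = 3.46e-09). Here the parental mean of 21.1 TPM lay between the isoforms. THBS1, thrombospondin 1, rose by 1.15 ± 0.105 (SE, adjusted p = 2.54e-09), from 4.97 to 12.2 TPM.

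CAVIN2, a coat protein of caveolae, had 6.36, 5.33 and 7.56 TPM in isoform 6 and 1.51, 1.24 and 1.81 TPM in isoform 4. The difference was 1.55 ± 0.17 (SE, adjusted p = 8.47e-08). The caveolins moved in the same direction, chosen here after their values were seen: CAV1 had mean levels of 141 and 75 TPM (difference 0.9) and CAV2 of 67.3 and 38.6 TPM (0.78), each past the adjusted p. Isoform 5 had 13.5 TPM of CAVIN2, above both isoforms, but 81.3 TPM of CAV1 and 42.3 TPM of CAV2, near isoform 4. Receptors called higher included SUCNR1, the receptor for succinate (15.8 against 4.6 TPM), FCGRT, the heavy chain of the neonatal Fc receptor (7.12 against 1.83 TPM), and ADGRG6, an adhesion G protein-coupled receptor (38.8 against 13.4 TPM). SUCNR1 had 14.5, 15.9 and 17 TPM in isoform 6 and 4.37, 4.54 and 4.88 TPM in isoform 4, a rise of 1.58 ± 0.15 (SE, adjusted p = 4.84e-09). Parental SUCNR1 was at 6.24 TPM, near isoform 4, while parental FCGRT was at 11 TPM, above both lines.

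**Figure D2:**
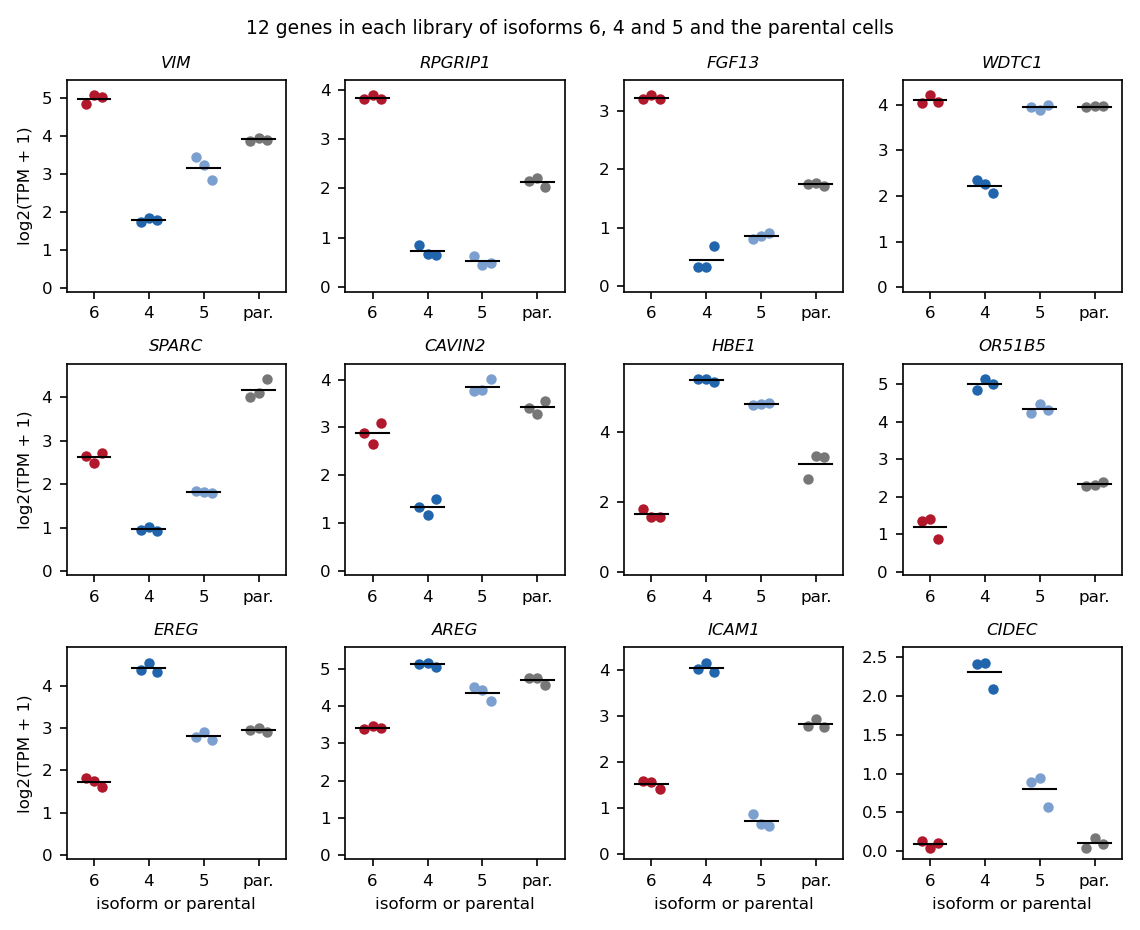
Levels of 12 of the genes described, as log2(TPM + 1) on the vertical axis, in the 3 libraries each of isoforms 6, 4 and 5 and of the parental cells (par.). Each point is a library and each bar the group mean, and in all 12 panels the red isoform 6 points lie clear of the dark blue isoform 4 points.

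The largest differences were in the other direction, at the beta-globin locus of chromosome 11. HBE1, the embryonic epsilon globin, had 2.46, 1.99 and 1.96 TPM in isoform 6 and 44.6, 44.4 and 42.4 TPM in isoform 4. The fall was -3.84 ± 0.183 (SE, adjusted p = 7.76e-16), the largest of any called gene. Parental cells had 7.68 TPM ± 2.05 (SD, n = 3), so isoform 6 lay below them (-1.44) and isoform 4 above them (2.40), while isoform 5 had 26.7 TPM ± 0.535 (SD, n = 3). OR51B5, an olfactory receptor gene upstream of the globins, went from 28.1, 34.3 and 31.5 TPM in isoform 4 to 1.54, 1.64 and 0.818 TPM in isoform 6 (-3.81 ± 0.16, adjusted p = 4.51e-17). OR51B4 went from 12.8, 14 and 14.3 TPM to 0.576, 1.3 and 0.663 TPM (-3.01 ± 0.151, adjusted p = 2.41e-15). The annotated span of HBE1 in GRCh38, chr11:5268345-5505652 on the minus strand, overlaps both receptor genes on the same strand, so reads may be split between the 3 genes and their separate values are uncertain. The adult beta globin HBB, in the same locus, moved the other way, with 38.8, 43.4 and 37.2 TPM in isoform 6 and 29.2, 25.2 and 23.2 TPM in isoform 4, a rise of 0.61 ± 0.0937 (SE, adjusted p = 2.82e-05).

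Across all 13 groups the HBE1 mean was highest in isoform 4 (43.8 TPM ± 1.24, SD, n = 3) and isoform 5 (26.7 TPM), followed by isoform 12 (16.4 TPM ± 1.93, SD, n = 3). Every other line was below the parental mean. Isoform 6, which shares its N-terminus with isoforms 4 and 5, was at 2.14 TPM ± 0.283 (SD, n = 3), next to isoforms 11 (2.25 TPM ± 0.725) and 1 (2.12 TPM ± 0.693), from which it did not differ beyond the spread.

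Ligands of the EGF receptor were lower in isoform 6. EREG, epiregulin, had 2.5, 2.35 and 2.04 TPM in isoform 6 and 19.8, 22.5 and 19.2 TPM in isoform 4. It fell by 2.70 ± 0.0996 on the log2 scale (adjusted p = 3.44e-18), from above the parental 6.78 TPM to below it. AREG, amphiregulin, had 9.47, 10.1 and 9.64 TPM in isoform 6 and 34.2, 34.8 and 32.2 TPM in isoform 4, a fall by 1.69 ± 0.0983 (SE, adjusted p = 9.37e-14). Betacellulin (BTC), at 1.96 against 4.45 TPM, differed by -0.88, and TGFA, at 8.22 against 11.9 TPM, by -0.49. The receptor ERBB3 differed by -0.45 (adjusted p = 0.00529), while EGFR (9.62 against 9.69 TPM, -0.01, adjusted p = 0.975), ERBB2 (-0.1, 0.351) and the ligand HBEGF (-0.13, 0.338) did not pass. Of the 9 tested genes in the list of EGF ligands and ERBB receptors, 5 were lower and none higher, with a median of -0.449.

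ICAM1, the adhesion molecule that binds leukocyte integrins, had 2.01, 1.99 and 1.7 TPM in isoform 6 and 15.2, 16.8 and 14.7 TPM in isoform 4. It fell by 2.51 ± 0.171 on the log2 scale (adjusted p = 3.84e-12). The parental level was 6.12 TPM ± 0.486 (SD, n = 3), between the isoforms, and isoform 5 was lowest at 0.651 TPM ± 0.164 (SD, n = 3). ICAM1 is a classic NF-kB target, and of 11 tested genes of the NF-kB and chemokine list 4 were lower and none higher (median -0.0877). The other 3 were IL32 (-0.67), TNFAIP3 (-0.27) and TNFAIP2 (-0.22). Each of these 3 missed the threshold without isoform 4 column 1, with adjusted p of 0.0528, 0.0756 and 0.145, and TNFAIP3 and TNFAIP2 also without single other libraries (up to 0.0698 and 0.155). NFKB1 (0), NFKBIA (-0.12) and RELB (0.21) did not pass.

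CIDEC, which drives the growth of lipid droplets, had 0.099, 0.0339 and 0.0747 TPM in isoform 6 and 4.31, 4.38 and 3.26 TPM in isoform 4. The isoform 6 libraries were at the level of the parental cells (0.0745 TPM ± 0.0461, SD, n = 3), and the difference of -2.21 ± 0.129 (SE) had an adjusted p of 9.47e-14. Isoform 5 was at 0.752 TPM ± 0.235 (SD, n = 3). C11orf86 had the same order among these isoforms, with 0.94, 0.547 and 0.739 TPM in isoform 6, 4.89, 3.05 and 3.77 TPM in isoform 4, 1.86 TPM in isoform 5 and 0.217 TPM in the parental cells. Its difference was -1.48 ± 0.143 (SE, adjusted p = 6.74e-09). Both genes reach far higher means in the isoform 1 line, 91.1 TPM for CIDEC and 98.8 TPM for C11orf86. DHRS2, a short-chain dehydrogenase, had 9.66, 10.2 and 10.1 TPM in isoform 6 and 51.9, 43.4 and 51.8 TPM in isoform 4 (-2.18 ± 0.407, adjusted p = 0.000348). Parental cells (96.4 TPM) and isoform 5 (200 TPM) were above both.

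CIDEC, C11orf86 and DHRS2 belong to a list of 14 genes that respond in other HNF4A lines, which was chosen from these same libraries and is no independent evidence of a direction. All 14 were tested: 7 were lower, 2 higher (SPARC and CAVIN2) and 5 did not pass, with a median of -0.369. The other lower members were CAMK2N1, an inhibitor of CaMKII (17.4 against 31.3 TPM, -0.81), IL32 (0.668 against 1.7 TPM, -0.67), TRIM10 (3.7 against 5.15 TPM, -0.39) and ACSL5, a long-chain acyl-CoA synthetase (0.257 against 0.603 TPM, -0.35). TRIM10 and ACSL5 missed the threshold whichever of the 6 libraries was left out, with adjusted p of up to 0.126 and 0.0944. SEMA3B (8.76 against 12.2 TPM), CIDEB (1.84 against 2.37), SDCBP2 (0.352 against 0.53), FGFBP1 (14.6 against 12.8) and PPP1R1B (3.87 against 2.57) did not pass. Among 21 liver and gut genes long known as targets of HNF4A, 16 were under the level filter. Of the other 5, 0 passed in limma and 0 had an unadjusted p under 0.05 (median 0.00803). APOA1, an apolipoprotein, had 0.333 and 0.221 TPM and VIL1, villin of the brush border, 0.949 and 1.36 TPM in isoforms 6 and 4.

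Other genes among the largest falls were ITGB8, an integrin subunit that activates latent TGF-beta, OCIAD1-AS1 and the uncharacterised RNAs LOC107986229, LOC105377276 and LOC105379273. ITGB8 had 3.72, 2.92 and 2.7 TPM in isoform 6 and 10.9, 12.9 and 10.9 TPM in isoform 4 (-1.62 ± 0.109, adjusted p = 3.43e-12). LOC105379273 was listed at 0 in all 3 isoform 6 libraries and at 2.07, 5.71 and 6.37 TPM in isoform 4, and missed the threshold when isoform 4 column 2 or 3 or any isoform 6 replicate was left out (adjusted p up to 0.116). Further called genes, outside the rule for named genes and chosen after their values were seen, were S100A14 (20.1 against 54.9 TPM), the pseudokinase TRIB2 (3.24 against 11 TPM), the arylamine acetyltransferase NAT2 (1.34 against 4.97 TPM) and LTN1, a ligase of ribosome quality control (4.32 against 12.3 TPM). Each of these 4 was called in every fit that left out a library.

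Epithelial and mesenchymal state genes did not move as a block. Of 17 tested, VIM and FN1, fibronectin (4.67 against 2.42 TPM, 0.74), were higher, and 4 epithelial genes were lower: KRT19 (340 against 479 TPM, -0.5), CLDN4 (92.5 against 120 TPM, -0.37), CDH1 (-0.31) and CLDN7 (-0.18). The other 11 did not pass, among them EPCAM (-0.12), OCLN (-0.01) and SNAI2 (0.13), and the median was -0.0761. KRT19, a keratin of simple epithelia, had 324, 343 and 353 TPM in isoform 6 and 478, 468 and 492 TPM in isoform 4, without overlap. ZEB1, ZEB2, TWIST1 and CDH2, genes of the mesenchymal programme, were below the level filter. Of 21 matrix and integrin genes, 4 were higher (SPARC, CYR61, THBS1 and LAMC1) and 2 lower (ITGB8 and ITGA3), with a median of 0.0612.

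Wnt target genes changed in both directions. Of 12 tested, 6 were higher: NOTUM (19.5 against 12.1 TPM, 0.65), AXIN2 (2.44 against 1.23 TPM, 0.63), NKD1 (0.4), SP5 (0.38), ZNRF3 (0.31) and TCF7 (0.19). NOTUM, AXIN2, NKD1 and ZNRF3 are feedback inhibitors of the pathway. Another 3 were lower: DKK1, a secreted inhibitor (483 against 639 TPM, -0.4), MYC (134 against 166 TPM, -0.3) and CCND1, cyclin D1 (164 against 199 TPM, -0.28). The median was 0.0997. AXIN2 had 2.73, 2.36 and 2.23 TPM in isoform 6 and 1.31, 1.21 and 1.16 TPM in isoform 4, and its parental level of 2.43 TPM was that of isoform 6. NOTUM and DKK1 did not share that order, with parental means of 16 and 420 TPM.

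In lipid metabolism, 7 of 19 tested cholesterol synthesis genes were lower and 2 higher (median -0.133). The lower ones included HMGCS1 (128 against 179 TPM, -0.48, adjusted p = 0.00117) and FDFT1, squalene synthase (383 against 451 TPM, -0.23). Of 14 tested genes of lipid droplets and fatty acid handling, CIDEC and ACSL5 were lower and none higher (median -0.0922). Of 17 genes of fatty acid oxidation, CPT1A and ACAA2 were higher and PDK4 lower (median 0.0283). Of 22 glycolysis and hypoxia genes, NDRG1 (30.3 against 61 TPM, -0.98, adjusted p = 6.5e-08), VEGFA (-0.4) and ALDOC (-0.3) were lower and EGLN3 higher (0.29), with a median of -0.0448. VEGFA missed the threshold without isoform 4 column 1 (adjusted p = 0.064), and the isoform 4 libraries had 40.6, 34.5 and 30.4 TPM of it.

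**Figure D3:**
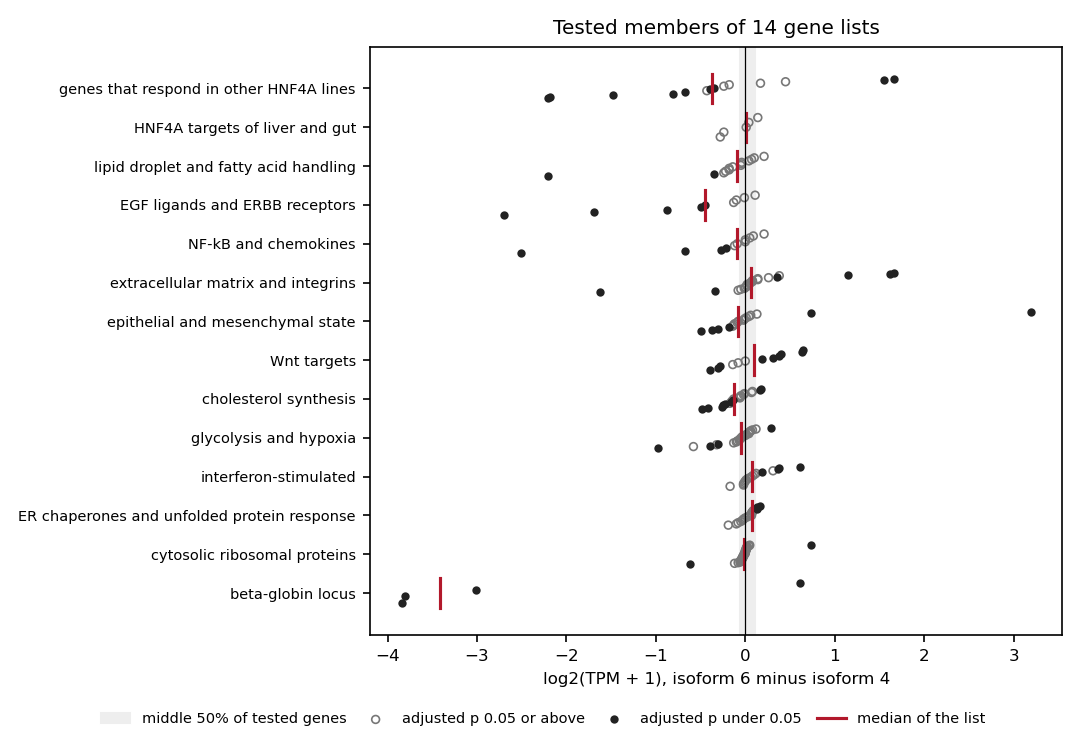
Differences in log2(TPM + 1) between isoform 6 and isoform 4 (horizontal axis) for the tested genes of 14 lists, 1 row per list and 1 point per gene, with filled points past an adjusted p of 0.05 and a red bar at each list's median. The grey band holds the middle 50% of all tested genes, from -0.0566 to 0.112, and is the spread of single genes, not of list medians. The lowest of the plotted medians, -3.41 for the beta-globin locus, rests on 4 genes, and the annotated span of HBE1 overlaps OR51B4 and OR51B5.

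Interferon-stimulated genes had 4 higher of 16 (OAS1, OAS3, IFITM3 and ISG15, median 0.0715), genes of the endoplasmic reticulum chaperone response 4 higher of 17 (median 0.067) and nuclear-encoded respiratory chain genes 4 higher of 24 (median 0.0716). With median-of-ratios scaling ISG15 (adjusted p = 0.0608), the chaperone genes SDF2L1, CRELD2 and MANF (0.118, 0.219 and 0.148) and the respiratory genes NDUFA4 and SDHB (0.0724 and 0.0736) no longer passed. S-phase genes had 3 higher of 24 (median 0.117) and mitosis genes 2 higher of 22, ASPM and BUB1 (median 0.127). Clock genes had 4 higher and 3 lower of 16 (median -0.0113), gut and liver transcription factors 1 higher (FOXA3) and 4 lower of 16 (median -0.106), and brush border genes 3 lower of 9 (median -0.272). Of 32 ribosomal protein genes 1 was higher and 1 lower, RPS6 of the small subunit (2530 against 3880 TPM, -0.62), with a median of -0.0119. In the p53 list BAX and PHLDA3 were higher and GDF15 lower of 19 (median -0.00589). The FGF list had FGF19 lower of 8 (-0.68, median 0.00523), the coagulation list F3, tissue factor, higher of 8 (0.58, median 0.0538), the MHC class I list B2M lower of 10 (-0.26, median 0.0195) and the ATF4 list CTH and ATF3 lower of 16 (median -0.0863). In the clock list CLOCK, PER3 and BHLHE40, 3 of the 4 higher genes, missed the threshold when single libraries were left out (adjusted p up to 0.151, 0.141 and 0.123), and so did GINS2 and TYMS, 2 of the 3 higher S-phase genes (0.231 and 0.179). GINS2 also missed it with median-of-ratios scaling (0.117). The chaperone gene PDIA6 (0.074), the lower transcription factors KLF5 and NR2F1 (0.204 and 0.176) and SLC9A3R1 of the brush border (0.0577) missed it as well when single libraries were left out. ISG15, GDF15, B2M, ATF3, BUB1, CPT1A and EGLN3 each missed the threshold when single libraries were left out, with adjusted p of up to 0.0909, 0.0571, 0.0863, 0.0637, 0.241, 0.0833 and 0.124. Of 4 metallothioneins, 0 passed in limma and 0 had an unadjusted p under 0.05 (median -0.303). The 13 mitochondrially encoded genes were not analysed here.

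Several called genes were neighbours on a chromosome. These groups, chosen after the values were seen, are genes past the adjusted p with a difference of at least 0.5 within 500 kb of each other. On chromosome 11, from 1828307 to 2149603, 5 of the 6 tested genes were called higher: SYT8 (1.1), TNNI2 (1.23), LSP1 (1.17), the imprinted RNA H19 (1.07) and IGF2, insulin-like growth factor 2 (1.04). Mean levels were 17.2 TPM in isoform 6 and 7.96 TPM in isoform 4 for IGF2, and 18.4 and 8.29 TPM for H19. SYT8, H19 and IGF2 were not called in every fit that left out a library. In isoform 5, IGF2 (21.1 TPM) and H19 (20.3 TPM) were at the level of isoform 6 or above.

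On chromosome 4, EREG, AREG and BTC were the 3 tested genes between 74365143 and 74794686, and all were lower. On chromosome 3, AADAC (0.69) and SUCNR1 (1.58) were higher together. On chromosome 12, ARNTL2 (0.59), PPFIBP1 (1.28) and REP15 (1) were, and on chromosome 7 SKAP2 (1.02), HOTAIRM1 (0.63), HOXA3 (1.43) and HOXA4 (0.89). The annotated span of HOXA3 overlaps HOXA4 on the same strand, so reads may be shared. TNFSF18 (-1.19) and TNFSF4 (-1.04), adjacent TNF-family ligands of chromosome 1, were both lower, and so were S100A14 (-1.4), S100A5 (-0.75), S100A4 (-0.57) and S100A3 (-0.52).

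**Figure D4:**
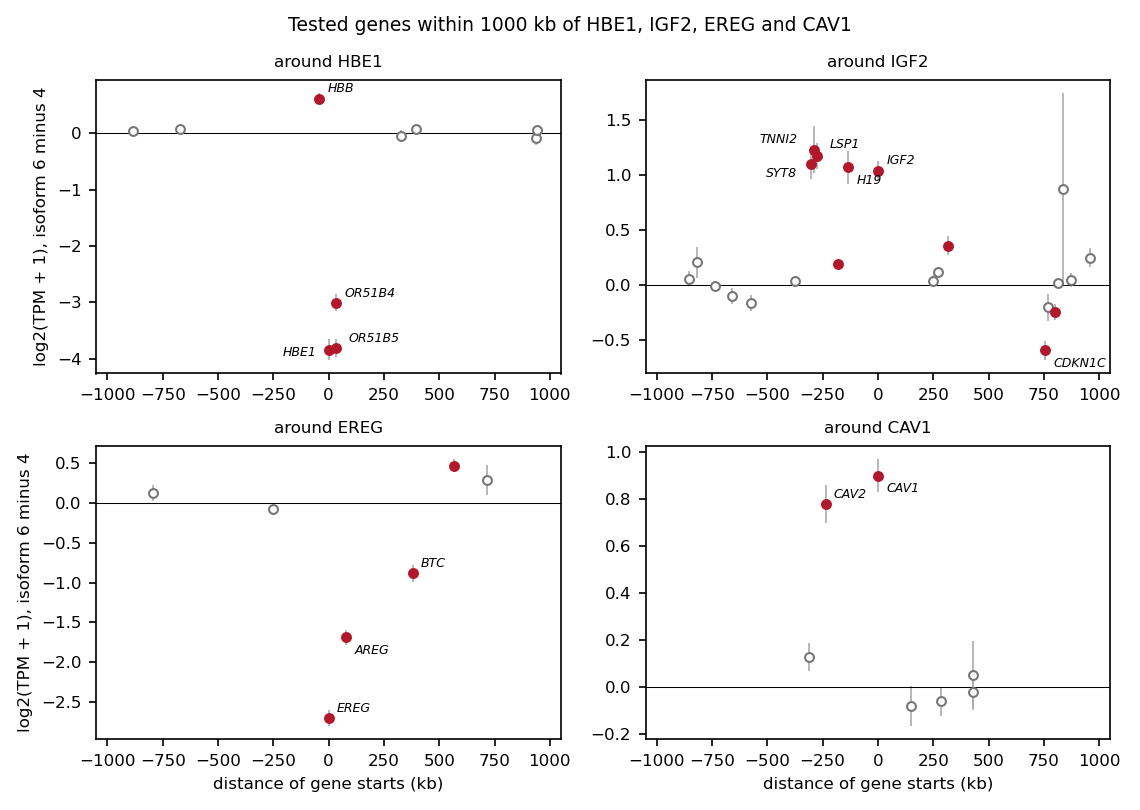
Differences in log2(TPM + 1) between isoform 6 and isoform 4 (vertical axis, vertical lines are the SE) for the tested genes within 1000 kb of 4 genes, by distance of gene starts in kb (horizontal axis). Filled points passed an adjusted p of 0.05. Around IGF2, SYT8, TNNI2, LSP1, H19 and IGF2 lie between 1.04 and 1.23, MRPL23 among them is at 0.19, and the next tested genes on either side, CTSD and CD81, are at 0.04.

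Letters known from HNF4A binding sites were sought near the starts of called genes. CAAAGTCCA was in 0 of the 38 promoters of genes called higher and 0 of the 20 of genes called lower that the RefSeq promoter table (GRCh38.p14) holds, in a window of 300 bases on both strands. CAAAGGTCA was in none of them either. The first run of letters is in 0.384% and the second in 0.407% of the 35116 promoters of that table. With shares this low, 0 matches in 38 and 20 promoters were likely for any genes. The counts therefore say nothing on HNF4A binding near the called genes.

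Isoform 6 was also set beside isoform 5. In limma 5 genes were called higher (0.0333%) and 14 lower (0.0933%), and without a minimum fold 258 were higher (1.72%) and 442 lower (2.95%). This comparison uses the same isoform 6 libraries. VIM differed between isoforms 6 and 5 by 1.81 (adjusted p = 2.06e-06), RPGRIP1 by 3.32 (1.66e-17) and FGF13 by 2.37 (5.32e-14). HBE1 differed by -3.15 (2.12e-13), OR51B5 by -3.14 (9.33e-15) and EREG by -1.09 (6.44e-09). For these 6 genes isoform 6 lay on the same side of isoforms 4 and 5. WDTC1 (0.15, adjusted p = 0.41), FCGRT (-0.19, 0.627) and BAX (-0.06, 0.52) did not pass against isoform 5, and ICAM1 (0.82, 0.00328) and CAVIN2 (-0.97, 0.000413) had the opposite sign from their difference against isoform 4.

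In the authors' deposited table, which compares each line with the parental cells, EREG had a log2 fold change of -1.21 in isoform 6 and 1.53 in isoform 4. HBE1 had -0.73 and 2.06 and ICAM1 -1.28 and 1.29 in the authors' deposited table. The signs were those of the differences from the parental cells computed here, -1.24 and 1.46 for EREG and -1.44 and 2.40 for HBE1, and for ICAM1 they were likewise negative in isoform 6 (-1.30) and positive in isoform 4.

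The same change of C-terminus separates isoforms 3 and 1, 9 and 7, and 12 and 10, which have other N-termini and share no library with isoforms 6 and 4. One isoform 3 library stood apart in its HNF4A level (406.95 TPM against 833.45 and 771.79 TPM), and without it the first of the counts that follow was 219. The test of the difference between the 2 contrasts called 275 genes against isoforms 3 and 1 (1.83%), 117 against 9 and 7 (0.78%) and 174 against 12 and 10 (1.16%). Leaving out repeated rows, 42 genes were called higher between isoforms 6 and 4. Of these, 21 were also higher in isoform 3 than 1 at an adjusted p under 0.05 (50%, against 27.3% of all tested genes), 9 in isoform 9 than 7 (21.4%, against 10.8%) and 10 in isoform 12 than 10 (23.8%, against 9.97%). In the opposite direction there were 4 (9.52%, against 13.8% of all tested genes), 3 (7.14%, against 4.69%) and 14 (33.3%, against 7.83%), so that for isoform 12 against 10 more of these genes went the opposite way than the same way. Of the 28 called lower, 11 were lower in isoform 3 than 1 (39.3%, against 13.8%), 7 in isoform 9 than 7 (25%, against 4.69%) and 4 in isoform 12 than 10 (14.3%, against 7.83%). In the opposite direction there were 3 (10.7%, against 27.3%), 1 (3.57%, against 10.8%) and 10 (35.7%, against 9.97%), again more opposite than alike for isoform 12 against 10.

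Some of the genes named by rule passed the adjusted p in the same direction in all 4 pairs. Lower in the short form were C11orf86, CIDEC, KRT19, IL32, ACSL5, VEGFA, ATF3 and SLC9A3R1, and higher were TYMS, GINS2 and PDIA6. Except for C11orf86, CIDEC and KRT19, their difference between isoforms 6 and 4 missed the threshold when single libraries were left out. C11orf86 differed by -2.27 in isoform 3 against 1, -1.49 in 9 against 7 and -2.09 in 12 against 10, and CIDEC by -2.65, -1.87 and -1.71, each past the adjusted p. KRT19 differed by -0.66, -0.46 and -0.48. DKK1, lower in isoform 6 than 4, was higher in the short form of each of the 3 other pairs (0.45, 0.7 and 0.47). ACAA2, higher in isoform 6 than 4 (0.27), was lower in the short form of each of the 3 other pairs (-1.19, -0.67 and -1.03). Both genes passed the adjusted p in each pair. Outside the rule for named genes, S100A14 differed by -2.67, -1.71 and -1.33 in these pairs and NAT2 by -1.61, -1.64 and -1.98. IGF2, higher in isoform 6 than 4, differed by 1.47, 0.42 and 0.64. Its neighbours SYT8, TNNI2, LSP1 and H19 were likewise positive in each of these pairs. Adjusted p-values of these genes in the other pairs are not given here. Vimentin differed by 0.02, 0.18 and 0.85, of which only the last passed (adjusted p = 0.00614), and RPGRIP1 by 0.27, 0.08 and 0.07, of which none did. EREG was lower in isoform 3 than 1 (-1.89) and in isoform 9 than 7 (-0.29, adjusted p = 0.0484) and differed by 0.14 in isoform 12 against 10 (adjusted p = 0.366). HBE1 and OR51B5 were higher in isoform 12 than 10, by 2.67 and 2.99, opposite to their fall in isoform 6. In isoform 9 against 7 both were lower, by -0.59 (adjusted p = 0.0272) and -0.68 (0.00344), and in isoform 3 against 1 HBE1 was higher (0.96, adjusted p = 8.37e-05) and OR51B5 differed by 0.33 (adjusted p = 0.106).

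**Figure D5:**
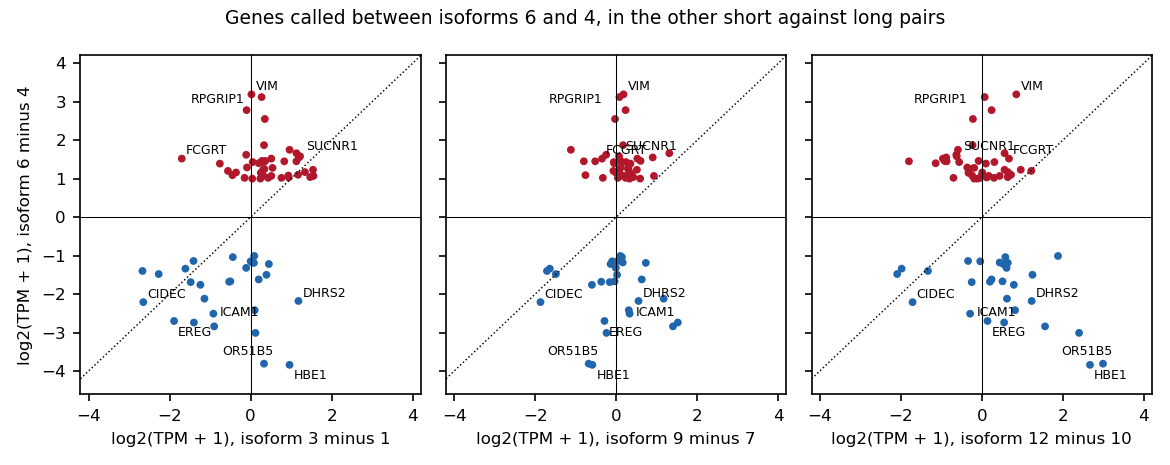
Differences in log2(TPM + 1) between isoform 6 and isoform 4 (vertical axis) against those of 3 other pairs of a short and a long form (horizontal axes), for the rows past the call rule between isoforms 6 and 4 (red higher, blue lower), with a dotted line where both are equal. The vertical position chose the genes, VIM and RPGRIP1 lie near 0 in the first 2 panels, and HBE1 and OR51B5 lie to the lower right for isoform 12 against 10.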

How the data were processed

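RNA of 39 samples was sequenced as poly(A)-selected, strand-keeping libraries, per the labels' protocols. The deposited tables give TPM per gene and library, and, for each line against the parental cells, the authors' mean signal, log2 fold change, its error, a score and p-values, per the file headers. The submitters' processing notes name Trimmomatic 0.36, FastQC 0.11.5, kallisto 0.44.0, DESeq2 1.22.2 and GRCh38.p12, without roles. Read depth cannot be read from TPM, and no interval for counting error is given.

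The tables of 45446 rows were joined by row order, and the 12 HNF4A isoform rows were left out of the fit. log2(TPM + 1) of all 39 libraries (13 groups of 3, so 26 residual degrees of freedom) was fitted in 1 limma model with a mean-dependent prior (limma 3.58.1, R 4.3.3), and p-values were adjusted by Benjamini and Hochberg over the 15002 genes whose mean over all libraries reached 1 TPM. Residual SDs had a median of 0.0936 (log2 units). A gene was called at an adjusted p under 0.05 and an absolute difference of at least 1. The fit was tested on simulated data. HNF4A was compared by an exact permutation test.

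The isoforms, genes and lists were chosen with earlier results of these data known. The genes named were the 12 called higher and the 12 called lower with the largest differences (short RNAs, pseudogenes and repeated rows apart), all genes of the list that responds in other HNF4A lines, up to 4 members past the adjusted p of every other list, and the 4 largest called genes of each interaction. Members of a list that did not pass, and genes named beyond this rule, were chosen after their values were seen. Some genes that the rule names are not reported here. The alternatives were another pseudocount, no filter and a filter of 5 TPM, median-of-ratios scaling, removal of repeated rows, a fit of the 6 libraries alone and leaving out each library.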

Additional observations from a re-analysis of the deposited data

Results flagged for a closer look

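Differences between pairs of isoforms were tested as interactions: the difference between isoforms 6 and 4 minus that between another short and long form, in the same limma fit. Against isoforms 3 and 1, 275 genes were called, against 9 and 7, 117, and against 12 and 10, 174. The 4 largest of each are given with the standard error and the Benjamini-Hochberg adjusted p.

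HBE1 had an interaction of -4.8 ± 0.259 against isoforms 3 and 1 (adjusted p = 5.74e-14), -3.25 ± 0.259 against 9 and 7 (1.81e-10) and -6.51 ± 0.259 against 12 and 10 (9.69e-18). OR51B5 had -4.13 ± 0.226 (5.74e-14), -3.13 ± 0.226 (2.4e-11) and -6.79 ± 0.226 (1.88e-19), in the same order. OR51B4, against isoforms 12 and 10, had -5.41 ± 0.214 (9.69e-18). The annotated span of HBE1 overlaps both receptor genes on the same strand, so the values of these 3 genes are not separate evidence. The HBE1 means behind them were 5.12 and 2.12 TPM in isoforms 3 and 1, 0.271 and 0.91 TPM in isoforms 9 and 7, and 16.4 and 1.73 TPM in isoforms 12 and 10.

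RPGRIP1 (3.04 ± 0.183, adjusted p = 5.14e-13) and VIM (3.01 ± 0.309, 3.09e-08) were called against isoforms 9 and 7, where RPGRIP1 had 0.53 and 0.446 TPM and VIM 3.14 and 2.66 TPM. DHRS2 had -3.36 ± 0.575 against isoforms 3 and 1 (adjusted p = 4.98e-05) and -3.41 ± 0.575 against isoforms 12 and 10 (7.76e-05), with an isoform 3 mean of 22 TPM ± 28.9 (SD, n = 3), a spread larger than the mean. SULT1A3, a sulfotransferase gene with near-identical copies, had 4.48 ± 1.52 against isoforms 3 and 1 (adjusted p = 0.0279). Its mean was 1.68 TPM ± 0.843 in isoform 3 and 31.8 TPM ± 35.8 in isoform 1 (SD, n = 3), where the spread was larger than the mean. Its own difference between isoforms 6 and 4 was 1.49 (adjusted p = 0.446), with means of 3.75 TPM ± 3.04 and 0.614 TPM ± 1.05 (SD, n = 3), and its reads may be split between the copies.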

How the results depend on the processing

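Numbers of called genes depended most on how low genes were treated. With a pseudocount of 0.1 TPM, 84 genes were called higher and 48 lower in isoform 6 than in isoform 4, and the interactions called 209 genes against isoforms 9 and 7 and 275 against 12 and 10. With a filter of 5 TPM, 18 were called higher and 14 lower, and the interactions called 138, 61 and 90 genes against isoforms 3 and 1, 9 and 7, and 12 and 10. Fewer genes are tested there. Of the 74 called genes, 72 were also called with the smaller pseudocount and 69 with median-of-ratios scaling. Without a minimum fold, 1041 genes passed when the 6 libraries were fitted alone, in place of 1772. The cause was not tested. Leaving out 1 library gave 37 to 50 called higher, 24 to 30 called lower and 1157 to 1588 without a minimum fold. It gave 219 to 290, 113 to 138 and 161 to 184 genes for the interactions and a log2 difference of 0.30 to 0.35 for HNF4A. Of 98 named genes, 92 passed the adjusted p, and 57 of these passed under every alternative that tested them. No named gene reversed its direction under any alternative run, and at most 24 lost the threshold in one of them. No paired analysis was possible because the labels give all 3 isoform 4 samples the same column name, so that no column can be tied to 1 numbered replicate. Depth is not known from TPM, so low genes carry an unknown counting error.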

Other observations

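Genes of chromosome 14 were higher in isoform 6 more often than those of other chromosomes. Of its 470 tested genes, 91 were higher (19.4%) and 12 lower (2.55%) at an adjusted p under 0.05 in limma, and the median log2 difference was 0.0661. On the other chromosomes the medians ran from 0.00043 to 0.0453 and the share of higher genes from 4.05% to 11.2%. The higher genes lay mostly between 60 and 100 Mb, a stretch chosen after the values were seen. There, among genes with coordinates, 67 of 183 were higher (36.6%) and 2 lower, with a median of 0.16. The rest of the chromosome had 24 of 266 higher (9.02%) and 9 lower, with a median of 0.0101. Against the parental cells the median over the stretch was 0.0679 in isoform 6 and -0.0816 in isoform 4. RPGRIP1 is on the same chromosome, outside this stretch.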
